A study of Homo sapiens with 9 samples.

Results

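The 10 genes described here encode the enzymes that write and erase DNA methylation and the proteins that work beside them: the methyltransferases DNMT1, DNMT3A and DNMT3B, their partners UHRF1, UHRF2 and HELLS, the dioxygenases TET1, TET2 and TET3, and the glycosylase TDG. They were chosen by name for their function, with earlier results of these data known, and all 10 were found among the 57338 genes of the table. According to the labels, RNA was measured in HEK293T cells, a line derived from human embryonic kidney, after transient transfection with plasmids that encode EGFP by itself, called the empty vector, or EGFP joined to human protamine 1 (hPRM1) or human protamine 2 (hPRM2). Protamines are the small basic proteins that take the place of histones in sperm. Cells were sorted for high EGFP 3 days later, so by design each group would hold only cells that took up much plasmid. The values of the libraries labelled hPRM1, given below, do not show this. No libraries labelled as cells without plasmid were analysed here. Each of the 3 groups had 3 libraries, made with a kit that reads the 3′ ends of polyadenylated transcripts. Nothing in the labels says whether the 3 libraries of a group came from separate transfections, so p-values measure the spread between these libraries.

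DNA methylation sits on cytosines followed by guanine. DNMT1 copies it to the new strand after replication, guided by UHRF1, which binds the half-methylated site, and by the chromatin remodeller HELLS. DNMT3A and DNMT3B set new marks. The TET enzymes oxidise methylcytosine, and TDG cuts out the oxidised bases, which base excision repair then replaces with unmethylated cytosine.

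The 3 libraries labelled hPRM1 went against their label, and every direction given for them rests on that label. PRM1 was listed at 0 in all 3, a value that allows up to 3 reads, and was also at 0 in the other 6 libraries. PRM2 was at 71224, 60050 and 36130 RPKM in hPRM2 replicates 1, 2 and 3 and at 0 elsewhere. RPKM is the read count of a gene scaled to the total of its library and to the gene's length in kilobases. Of 10 genes that mark HEK293T cells, 9 were at 0 in all 3 libraries labelled hPRM1, among them TUBB2B, a neural tubulin that lay between 46.6 and 153.3 RPKM in the other 6 libraries. PAX2, NEFL and SOX11, also among the 9, were weak in the empty vector as well, at most at 3.00, 1.125 and 0.551 RPKM. The alpha globin gene HBA2 reached 1223530, 1146420 and 1295700 RPKM in the libraries labelled hPRM1 and at most 18.0 RPKM elsewhere. The sum of 10 red cell genes lay between 2.06e+06 and 2.27e+06 RPKM in those libraries, between 3.09 and 18.2 RPKM in the empty vector and between 2.16 and 16.3 RPKM in hPRM2. Sums of 10 neutrophil and monocyte genes were 5879 to 6784, 0.284 to 3.02 and 2.29 to 20.7 RPKM in the same order. For 10 lymphocyte genes they were 641.2 to 871.2 RPKM in the libraries labelled hPRM1, at most 0.438 RPKM in the empty vector and 0 in hPRM2, and for 6 platelet genes 335.9 to 594.9, 16.9 to 32.1 and 8.61 to 14.0 RPKM. HBA2, HBB and HBA1 made up nearly all of the red cell sum in the libraries labelled hPRM1. HBD of that list was at 0 in their replicates 1 and 2 and at 0.786 RPKM in replicate 3, and FCGR3B of the neutrophil and monocyte list was at 0 in every library. NKG7 of the lymphocyte list and TYROBP of the myeloid list were at 0 in all empty vector and hPRM2 libraries, and so was PF4 of the platelet list, apart from 4.45 RPKM in empty vector replicate 3. Their library numbers also belong to a separate run of numbers from those of the other 6 libraries, so a batch of libraries and the label hPRM1 cannot be told apart.

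**Figure D1:**
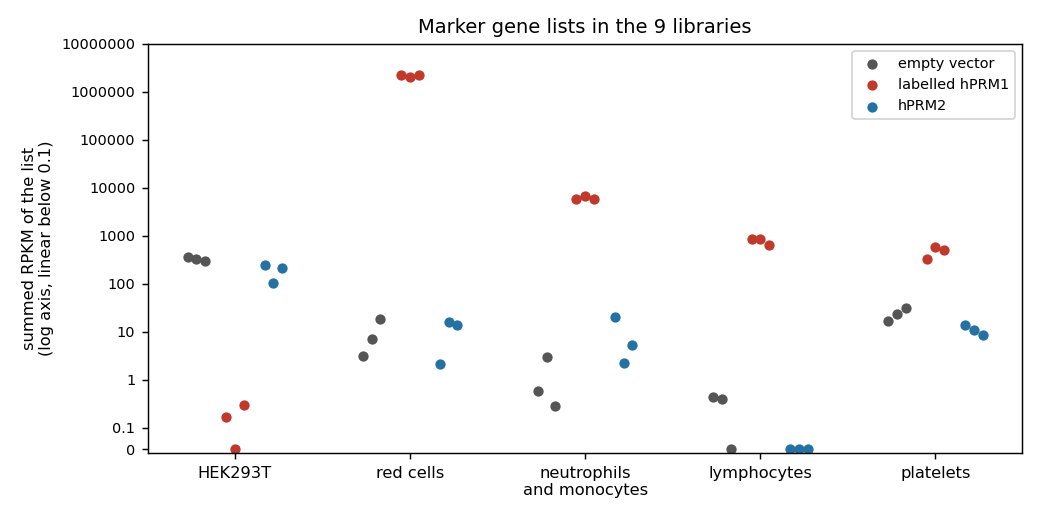
Summed RPKM (vertical axis, logarithmic and linear below 0.1) of the genes of 5 marker lists, 1 point per library, for empty vector, libraries labelled hPRM1 and hPRM2. The libraries labelled hPRM1 lie at most at 0.306 RPKM for the HEK293T list, where the empty vector lies between 301.6 and 362.1, and lie above all other libraries for the 4 blood cell lists.

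Depth differed between the groups. Reads on genes, estimated from the spacing of low values, were 7850000 to 10690000 for the empty vector, 4170000 to 5810000 for the libraries labelled hPRM1 and 1260000 to 2630000 for hPRM2. The hPRM2 values of weak genes therefore rest on the fewest reads, and hPRM2 replicate 1 stands apart with 9652 genes above 0, against 14353 and 15633 in its replicates. Fewer cells of a type and less RNA per cell cannot be told apart in bulk RNA. The deposited RPKM are divided by the total reads of each library, of which HBA2 alone took a large portion in the libraries labelled hPRM1. Each result is therefore given as deposited and after median-of-ratios rescaling, which divides each library by its median ratio to the mean profile over the 7274 genes above 0 in all 9 libraries.

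**Figure D2:**
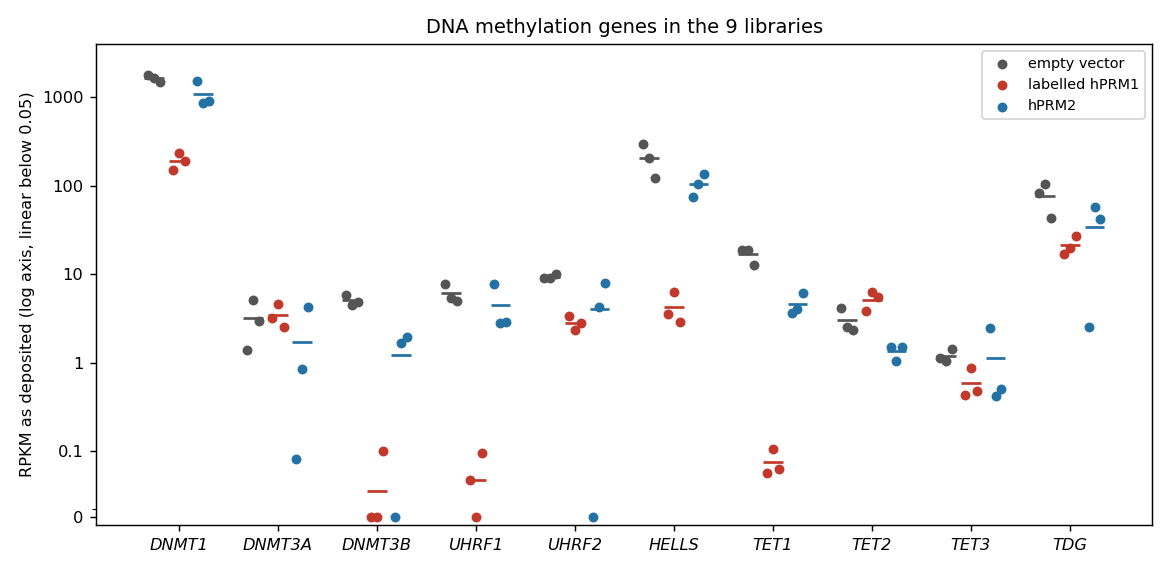
RPKM as deposited (vertical axis, logarithmic and linear below 0.05) of the 10 DNA methylation genes in the 9 libraries, with 1 point per library and a line at the mean of each group of 3. The libraries labelled hPRM1 lie below all others for DNMT1, HELLS, TET1 and UHRF1, below the empty vector for DNMT3B, which is also at 0 in hPRM2 replicate 1, and above all of hPRM2 for TET2.

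In the empty vector, DNMT1 had the highest level of the 10 genes, followed by HELLS and TDG. Mean levels were 1646 ± 152 RPKM for DNMT1, 206.9 ± 86.5 RPKM for HELLS, 76.6 ± 30.9 RPKM for TDG and 16.8 ± 3.57 RPKM for TET1 (SD, n = 3 each). UHRF2 followed at 9.39 ± 0.535 RPKM, and the RPKM ranges of these 5 genes did not overlap with those of their neighbours in the order. In reads estimated at the longest transcript of each gene, TET1 (1223 to 1439) and TDG (1391 to 2652) did overlap. UHRF1 (6.05 ± 1.47), DNMT3B (5.05 ± 0.684), DNMT3A (3.17 ± 1.89) and TET2 (3.00 ± 1.01 RPKM, SD, n = 3 each) overlapped from 1 gene to the next. TET3 was lowest, with 1.20 ± 0.194 RPKM. The order between genes also depends on the gene lengths that the authors used, which were not used here: GENCODE 29 lists 28 transcripts of DNMT1, from 231 to 5408 bases, and its annotated span overlaps another gene, S1PR2. In hPRM2 the order began in the same way, with DNMT1 (1088 ± 367 RPKM), HELLS (104.8 ± 29.6 RPKM) and TDG (33.9 ± 28.1 RPKM, SD, n = 3 each), and neighbours overlapped from TDG down. In the libraries labelled hPRM1, TET2 (5.17 ± 1.24 RPKM) stood in the third place behind DNMT1 (191.1 ± 42.4 RPKM) and TDG (21.3 ± 5.32 RPKM), and TET1, UHRF1 and DNMT3B came last with means of at most 0.0751 RPKM (SD, n = 3 each). From TET2 to UHRF2 and from TET1 to DNMT3B the ranges of neighbours overlapped there.

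By its label, the comparison of the libraries labelled hPRM1 with the empty vector concerns the first protamine. PRM1 was at 0 in these libraries, so the comparison describes these libraries and not a protamine effect. As deposited, 7 of the 10 genes were lower and 0 were higher. HELLS, TET1 and DNMT1 were lowest on the log2(RPKM + 1) scale of the test, and DNMT3A, TET2 and TET3 did not pass. After rescaling, HELLS, TET1, UHRF1 and DNMT3B remained lower and DNMT3A and TET2 were higher. A gene counted as called with an adjusted p of at most 0.05 in limma (Benjamini-Hochberg over all genes tested) and a change of at least 2-fold on the log2(RPKM + 1) scale, which understates the change of weak genes. The calls among all genes were nearly as frequent: as deposited, 62.5% of the 13588 genes tested were lower and 12.9% higher, with a median log2 difference of -1.72, beside a median of -2.14 over the 10 genes. At an unadjusted p under 0.05, 8 of the 10 genes were lower and 0 higher, beside 80.7% of all genes in either direction, and after rescaling 5 were lower and 4 higher, beside 68.7%. The per-gene test of the study's methods called 4 of the 10 lower (DNMT1, DNMT3B, UHRF2 and TET1). After rescaling, 23.6% of all genes were lower and 35.5% higher, the median of all genes was 0.34 and that of the 10 genes 0.03. In both protamine comparisons the same 3 empty vector libraries served as controls.

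HELLS (ENSG00000119969, chr10:94501434-94613905 in GRCh38, as are the positions that follow, from GENCODE 29) had the largest difference of the 10 genes as deposited on the log2(RPKM + 1) scale. This place depends on the scale: over the alternatives the TET1 difference went as low as -6.58 and that of HELLS as low as -5.62. Its levels were 294.0, 205.6 and 121.0 RPKM with the empty vector, 3.57, 6.21 and 2.85 RPKM with the label hPRM1, and 74.9, 105.6 and 134.0 RPKM in hPRM2. The libraries labelled hPRM1 were low in every replicate and did not overlap with either other group. The log2 difference from the empty vector was -5.28 ± 0.39 (SE, adjusted p = 3.25e-05), and -2.98 ± 0.36 after rescaling (adjusted p = 0.000473).

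UHRF1 (ENSG00000276043, chr19:4903080-4962154), the reader of half-methylated sites, had a lower level in all 9 libraries than HELLS. It had 7.74, 5.42 and 5.003 RPKM with the empty vector, 0.0468, 0 and 0.0943 RPKM with the label hPRM1, and 7.65, 2.79 and 2.91 RPKM in hPRM2. The libraries labelled hPRM1 held at most about 2 reads of it at its longest transcript, and the other 6 libraries overlapped among themselves. Its log2 difference from the empty vector was -2.73 ± 0.23 (SE, adjusted p = 5.55e-05) and -1.79 ± 0.23 after rescaling (adjusted p = 0.000525). UHRF2 (ENSG00000147854, chr9:6413151-6507054), its paralogue, had 9.05, 9.11 and 10.01 RPKM with the empty vector, 3.36, 2.37 and 2.79 RPKM with the label hPRM1, and 0, 4.29 and 7.97 RPKM in hPRM2. Its direction in the libraries labelled hPRM1 depended on the scaling: it was called lower as deposited (-1.44 ± 0.20, SE, adjusted p = 0.000545) and lay at 0.66 ± 0.26 after rescaling (adjusted p = 0.0568).

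DNMT1 (ENSG00000130816, chr19:10133345-10231286), the maintenance methyltransferase, was low in the libraries labelled hPRM1 but well detected. It had 1795, 1650 and 1492 RPKM with the empty vector, 148.7, 233.4 and 191.3 RPKM with the label hPRM1, and 1511, 853.1 and 900.0 RPKM in hPRM2. The log2 difference of the libraries labelled hPRM1 from the empty vector was -3.12 ± 0.20 (SE, adjusted p = 1.82e-05). After rescaling the levels were 883.9, 781.3 and 757.8 against 452.2, 570.2 and 564.6, and the difference of -0.61 ± 0.16 (SE, adjusted p = 0.0134) missed the 2-fold threshold. The groups still did not overlap.

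The promoters of these genes are shown for 3 of them, because the copying machinery is known to be switched on in S phase by E2F factors, whose binding letters can be searched for. Promoters were the 250 bases before each transcription start in RefSeq (GRCh38.p14), and the 10 genes had 21 of them among 35116 in all. The letters TTTCCCGC, TTTCGCGC, TTTGCCGC and TTTGGCGC, on either strand, were found in 3 promoters of 2 genes, HELLS and UHRF1, and in 2.79% of all promoters. Matches are in capitals in the 3 sequences below, each written 5′ to 3′ on the strand of its gene. HELLS lies on the plus strand at chr10:94545538-94545787, the first of the 2 UHRF1 promoters with a match on the plus strand at chr19:4909251-4909500, and DNMT1, in which these letters were not found, on the minus strand at chr19:10194954-10195203.
HELLS: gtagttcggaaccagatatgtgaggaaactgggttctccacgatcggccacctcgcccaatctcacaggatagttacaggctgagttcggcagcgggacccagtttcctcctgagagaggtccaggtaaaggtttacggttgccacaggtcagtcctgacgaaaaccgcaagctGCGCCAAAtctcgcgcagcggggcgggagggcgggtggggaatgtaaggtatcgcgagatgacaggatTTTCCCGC
UHRF1: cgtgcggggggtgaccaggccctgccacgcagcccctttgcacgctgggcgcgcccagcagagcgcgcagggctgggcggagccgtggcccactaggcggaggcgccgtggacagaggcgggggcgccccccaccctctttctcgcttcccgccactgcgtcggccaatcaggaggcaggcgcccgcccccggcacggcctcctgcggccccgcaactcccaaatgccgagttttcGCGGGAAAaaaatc
DNMT1: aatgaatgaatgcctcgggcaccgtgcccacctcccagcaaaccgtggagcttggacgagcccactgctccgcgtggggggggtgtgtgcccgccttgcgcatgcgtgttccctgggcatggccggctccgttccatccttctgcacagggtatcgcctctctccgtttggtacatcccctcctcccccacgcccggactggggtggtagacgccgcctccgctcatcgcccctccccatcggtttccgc

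HELLS holds a pair of matches, which begin 76 and 8 bases before the start, and the UHRF1 promoter shown holds 1, which begins 14 bases before it. A match is a description of the letters and not a measured binding site. The CpG number of the promoters shown was 18 for HELLS, 28 for UHRF1 and 21 for DNMT1, and the median of all promoters was 11.

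Of the de novo methyltransferases, DNMT3B was called lower under both scalings and DNMT3A under neither. DNMT3B (ENSG00000088305, chr20:32762385-32809356) had 5.81, 4.50 and 4.83 RPKM with the empty vector, 0, 0 and 0.101 RPKM with the label hPRM1, and 0, 1.65 and 1.96 RPKM in hPRM2. No library of either other group reached the lowest empty vector library. For the libraries labelled hPRM1 the log2 difference was -2.54 ± 0.20 (SE, adjusted p = 4.05e-05) and -1.67 ± 0.21 after rescaling (adjusted p = 0.000500). DNMT3A (ENSG00000119772, chr2:25227855-25342590) had 1.39, 5.15 and 2.97 RPKM with the empty vector, 3.23, 4.55 and 2.51 RPKM with the label hPRM1, and 0.0815, 0.849 and 4.21 RPKM in hPRM2. All 3 groups overlapped as deposited, where the log2 difference was 0.17 ± 0.39 (SE, adjusted p = 0.710), and it became 2.08 ± 0.33 after rescaling (adjusted p = 0.00150). The catalytically inactive cofactor DNMT3L was at 0 in all 9 libraries.

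Of the TET genes, TET1 was lower under both scalings in the libraries labelled hPRM1. TET1 (ENSG00000138336, chr10:68560656-68694482) had 18.9, 18.8 and 12.7 RPKM with the empty vector, 0.0566, 0.105 and 0.0635 RPKM with the label hPRM1, and 3.67, 4.08 and 6.05 RPKM in hPRM2. No range overlapped with another. TET1 has a single transcript in GENCODE 29, of 9288 bases, so its reads can be estimated: about 2.97, 3.96 and 2.97 in the libraries labelled hPRM1, 87.3, 46.5 and 87.0 in hPRM2 and 1223 to 1439 in the empty vector. The log2 difference of the libraries labelled hPRM1 from the empty vector was -4.03 ± 0.23 (SE, adjusted p = 1.29e-05) and -2.92 ± 0.24 after rescaling (adjusted p = 7.71e-05).

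TET2 (ENSG00000168769, chr4:105145875-105279816), a dioxygenase known for its part in blood cell formation, had 4.16, 2.54 and 2.31 RPKM with the empty vector, 3.80, 6.23 and 5.48 RPKM with the label hPRM1, and 1.49, 1.03 and 1.51 RPKM in hPRM2. The libraries labelled hPRM1 overlapped with the empty vector in 1 replicate and lay above all of hPRM2. The log2 difference from the empty vector was 0.63 ± 0.28 as deposited (SE, adjusted p = 0.0737) and 2.63 ± 0.25 after rescaling (adjusted p = 0.000164). TET3 (ENSG00000187605, chr2:73986404-74108176) stayed near the lower limit of the test, with 1.12, 1.05 and 1.42 RPKM with the empty vector, 0.429, 0.874 and 0.481 RPKM with the label hPRM1, and 2.47, 0.423 and 0.502 RPKM in hPRM2. Its log2 difference turned from -0.47 ± 0.19 (SE, adjusted p = 0.0564) to 0.71 ± 0.21 after rescaling (adjusted p = 0.0220, under 2-fold). TDG (ENSG00000139372, chr12:103965804-103988874), the glycosylase downstream of the TET enzymes, had 82.2, 104.3 and 43.4 RPKM with the empty vector, 16.8, 19.9 and 27.1 RPKM with the label hPRM1, and 2.51, 56.8 and 42.4 RPKM in hPRM2. It also turned, from -1.74 ± 0.36 (SE, adjusted p = 0.00389) to 0.71 ± 0.35 after rescaling (adjusted p = 0.122).

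**Figure D3:**
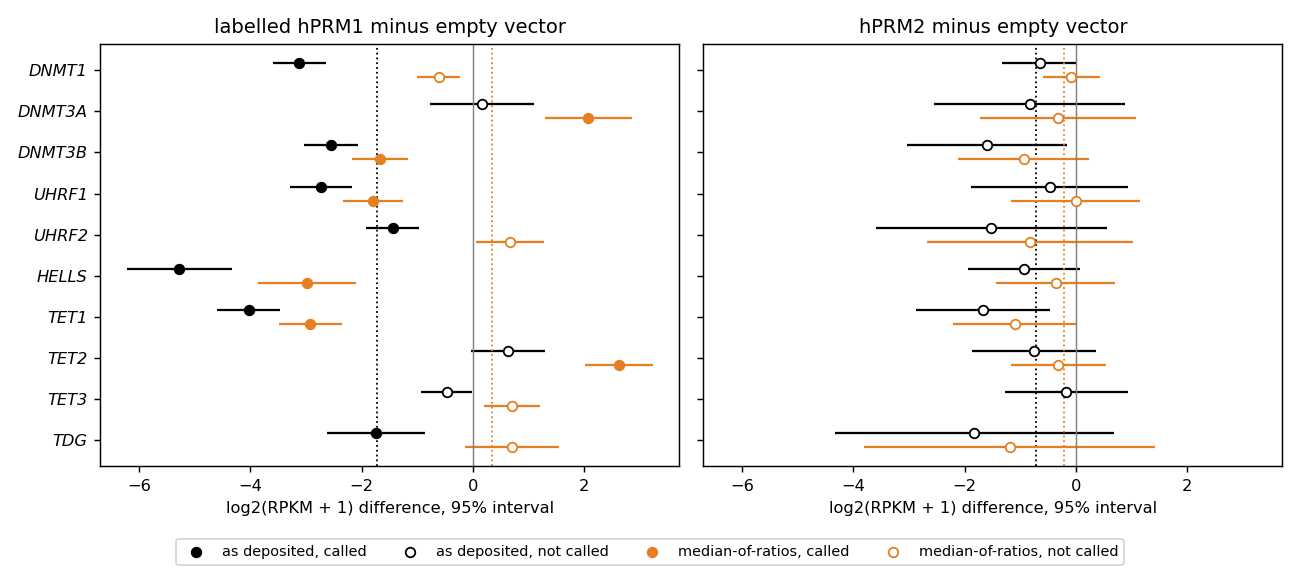
Log2(RPKM + 1) difference from the empty vector (horizontal axis) of the 10 genes, with 95% confidence intervals from limma, for the libraries labelled hPRM1 (left) and hPRM2 (right), n = 3 libraries a group. Filled points passed both thresholds, and dotted lines mark the median of all genes tested (-1.72 and 0.34 left, -0.72 and -0.21 right, as deposited and after rescaling). HELLS, TET1, UHRF1 and DNMT3B lie to the left under both scalings on the left panel, and no point is filled on the right.

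Ratios between genes of the same library do not depend on how libraries are scaled, and they were chosen after the values above had been seen. Their absolute size depends on the gene lengths behind RPKM, taken here to be the same in every library. TET1 to TET2 was 4.54, 7.40 and 5.48 with the empty vector, 0.0149, 0.0169 and 0.0116 with the label hPRM1, and 2.46, 3.95 and 4.01 in hPRM2. TET1 thus exceeded TET2 in 6 of 6 other libraries and lay below it in 3 of 3 libraries labelled hPRM1. The log2 ratio was lower by -8.64 in the libraries labelled hPRM1 than in the empty vector, with SDs of 0.28 and 0.36. TET1 rests on about 2.97 to 3.96 reads in the libraries labelled hPRM1, so the size of this difference is imprecise. TET2 to DNMT1 was 0.00232, 0.00154 and 0.00155 with the empty vector, 0.0256, 0.0267 and 0.0286 with the label hPRM1, and 0.000988, 0.00121 and 0.00168 in hPRM2. HELLS to DNMT1 was 0.164, 0.125 and 0.0811 with the empty vector, 0.0240, 0.0266 and 0.0149 with the label hPRM1, and 0.0496, 0.124 and 0.149 in hPRM2. HELLS was therefore lower in the libraries labelled hPRM1 also when set against DNMT1, which fell itself as deposited. DNMT1 to DNMT3A was 1290, 320.2 and 502.2 in the empty vector against 46.1, 51.3 and 76.1 in the libraries labelled hPRM1, but ran from 213.9 to 18541 in hPRM2, where DNMT3A of replicate 1 rests on about 2 reads at its longest transcript. For all 4 ratios the libraries labelled hPRM1 did not overlap with either other group (exact permutation test on both sides, p = 0.1, which is the least that 3 libraries against 3 allow, and 0.133 after Benjamini-Hochberg adjustment over 12 tests). Between hPRM2 and the empty vector 3 of the 4 ratios overlapped, and TET1 to TET2 did not (log2 difference -0.75, exact permutation p = 0.1, adjusted 0.133).

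For hPRM2 against the empty vector, 0 of the 10 genes were called in limma in either direction, beside 1.37% of the 13126 genes tested lower and 1.36% higher. All 10 differences lay below 0, with a median of -0.88, and the median of all genes was -0.72. At an unadjusted p under 0.05, DNMT3B and TET1 were lower and none of the 10 was higher, beside 25.5% of all genes in either direction, and the per-gene test of the study's methods also called 0. After rescaling 0 of 9 tested genes were called, beside 0.651% of all genes lower and 2.12% higher. An unadjusted p under 0.05 was reached by 0 of them, beside 17% of all genes in either direction. TET3 was then under the limit for testing.

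TET1 and DNMT3B came nearest to a call. The TET1 difference was -1.67 ± 0.51 (SE, 95% interval -2.88 to -0.46, adjusted p = 0.116), and all 3 hPRM2 libraries lay under the lowest empty vector library. Without hPRM2 replicate 1, the library that stands apart, it was -1.55 and was called (limma adjusted p = 0.0483), and a fit over all 9 libraries together called it as well (adjusted p = 0.0234). DNMT3B, at -1.60 ± 0.61 (SE, 95% interval -3.04 to -0.16, adjusted p = 0.166), was called in the fit of all 9 libraries alone (adjusted p = 0.0461). In hPRM2 replicates 1, 2 and 3 it rests on about 0, 8.5 and 12.8 reads at its longest transcript. For DNMT1 the interval ran from -1.32 to 0.03, for HELLS from -1.93 to 0.09, for TET2 from -1.87 to 0.37 and for TET3 from -1.28 to 0.94. Those of UHRF1 (-1.88 to 0.95), DNMT3A (-2.54 to 0.89), UHRF2 (-3.59 to 0.56) and TDG (-4.33 to 0.68) were wider. All of these intervals allow a fall of more than 2-fold. UHRF2 at 0 and TDG at 2.51 RPKM in hPRM2 replicate 1 stood far under their replicates. For each gene, a difference anywhere within its interval remained compatible with these libraries, so a missing call does not show that the gene was unchanged.

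Set directly against hPRM2, the libraries labelled hPRM1 were lower in 4 of the 8 genes tested and higher in 1. This comparison also tests whether the 2 differences from the shared empty vector libraries differ. With PRM1 at 0 in the libraries labelled hPRM1, it is not a test of 2 protamine effects. HELLS (-4.36 ± 0.40, SE, adjusted p = 0.000393), DNMT1 (-2.48 ± 0.32, adjusted p = 0.00121), TET1 (-2.36 ± 0.30, adjusted p = 0.00117) and UHRF1 (-2.27 ± 0.40, adjusted p = 0.00404) were lower. TET2 was higher (1.38 ± 0.38, adjusted p = 0.0213), a call that was lost in 6 alternatives: without replicate 2 or replicate 3 of the libraries labelled hPRM1 (adjusted p = 0.0684 and 0.0744), with a pseudocount of 5 (under 2-fold), without a filter, with a replicate block (adjusted p = 0.0542 and 0.0825) and in the per-gene test of the study's methods (adjusted p = 0.144). That per-gene test also ended the 4 lower calls (adjusted p = 0.138 to 0.258). Without hPRM2 replicate 1, TDG was called lower as well (-1.20, adjusted p = 0.0173). DNMT3B and TET3 were too weak to be tested. Among all 11756 genes 37.0% were lower and 16.0% higher, and the median was -0.97, beside -1.10 over the 8 genes. After rescaling HELLS, TET1 and UHRF1 were lower (-2.63, -1.84 and -1.79) and DNMT3A and TET2 higher (2.41 and 2.95) among 9 genes tested. In that scaling 16.1% of all genes were lower and 31.1% higher, with a median of 0.58.

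A wider list of 63 partner genes in 6 groups was followed in the same fits. Against the empty vector, 40 of the 59 tested were lower in the libraries labelled hPRM1 as deposited and 1 was higher, and after rescaling 16 were lower and 20 higher. These counts stand beside 62.5% of all genes lower and 12.9% higher as deposited, and 23.6% and 35.5% after rescaling, and the same shares apply to the 6 groups below. At an unadjusted p under 0.05, 47 partner genes were lower and 2 higher as deposited, and 21 and 25 after rescaling. Beside these stand 80.7% and 68.7% of all genes in either direction. The 1 higher gene was MPHOSPH8 of the HUSH silencing complex, named here after its values were seen, with RPKM of 22.8, 26.1 and 18.9 for the empty vector against 51.5, 65.8 and 56.4 for the libraries labelled hPRM1 (1.32 ± 0.20, SE, adjusted p = 0.000900). The median of the 59 genes was -2.05 as deposited and 0.16 after rescaling.

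Partners of maintenance methylation were lower in 7 of 7 tested genes as deposited and in 3 after rescaling. Those 3 were PCLAF, PCNA and CDCA7. PCLAF, which binds PCNA, lay between 293.2 and 371.0 RPKM in the empty vector but at most at 1.11 RPKM in the libraries labelled hPRM1 (-7.88 ± 0.29, SE, adjusted p = 3.72e-06, and -6.34 rescaled). PCNA, the sliding clamp that tethers DNMT1 to replication, differed by -5.60 ± 0.23 (SE, adjusted p = 4.51e-06, and -3.38 rescaled), and CDCA7, which recruits HELLS, by -5.46 ± 0.27 (SE, adjusted p = 7.59e-06, and -4.02 rescaled). USP7, a deubiquitinase that stabilises DNMT1 and UHRF1, and ZBTB24, an activator of CDCA7, turned from -1.53 and -1.21 to 0.87 and 0.70 after rescaling. A list of 12 genes of S phase and proliferation, such as the MCM helicase genes, was lower in 11 of 11 tested genes under both scalings, with medians of -4.94 and -3.42. Beside this stand 62.5% of all genes lower as deposited and 23.6% after rescaling. MCM4 was not tested, at 0 in the libraries labelled hPRM1 and in empty vector replicate 3. The summed level of the 12 genes lay between 15.7 and 22.2 RPKM in the libraries labelled hPRM1, between 750.8 and 889.8 RPKM in the empty vector and between 543.1 and 1115 RPKM in hPRM2. The part of the blood cell and proliferation genes in the differences of HELLS, UHRF1, DNMT3B and TET1 was not tested.

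Among the 8 methyl-CpG readers, 2 were lower as deposited and 0 higher, with a median of -0.64, and 1 was lower and 6 higher after rescaling, with a median of 1.70. MBD4, a reader with glycosylase activity, had RPKM of 51.2, 55.0 and 48.6 with the empty vector against 37.2, 40.2 and 32.9 with the label hPRM1. Its log2 difference was -0.48 ± 0.17 (SE) as deposited and 1.98 ± 0.16 after rescaling (adjusted p = 7.62e-05). ZBTB33, also called Kaiso, was the 1 reader called lower under both scalings (-2.99 ± 0.25 and -1.14 ± 0.26, SE).

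In the de novo and silencing group, 5 of 8 tested genes were lower and 1 higher as deposited, and 1 and 3 after rescaling. TRIM28, the corepressor of KRAB zinc finger proteins, was lower under both (-3.68 ± 0.25 and -1.24 ± 0.24, SE). SETDB1, a histone H3 lysine 9 methyltransferase, was lower as deposited (-2.42) and lay at -0.11 after rescaling, and NSD1, a histone H3 lysine 36 methyltransferase, went from -0.55 to 1.83. Of the TET partners and CpG island proteins, 6 of 11 were lower and 0 higher as deposited, and 1 was lower and 5 higher after rescaling. OGT, a transferase that binds the TET proteins, lay at -0.22 and rose by 1.93 after rescaling. KDM2A, a histone demethylase found at CpG islands, lay at 0.65 and 3.13, and CXXC5 at -1.15 and 1.28. IDH2, which makes the 2-oxoglutarate that TET enzymes use, lay at -2.15 and 0.24.

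Base excision repair and the methyl donor cycle were lower in 9 of 12 and 11 of 13 genes as deposited, and in 4 and 6 after rescaling, when 3 of each were higher, beside the shares of all genes given above (62.5% lower as deposited, 23.6% lower and 35.5% higher after rescaling). In repair, PARP1 (-3.69 and -1.24 rescaled) and POLB, the gap-filling polymerase (-3.83 and -1.39), were lower under both scalings, and the endonuclease APEX1 only as deposited (-3.41, and -0.94 rescaled). In the donor cycle, the folate enzyme MTHFD1 (-5.09 and -2.82) was lower under both, and AHCYL1 as deposited (-2.56, and -0.09 rescaled).

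**Figure D4:**
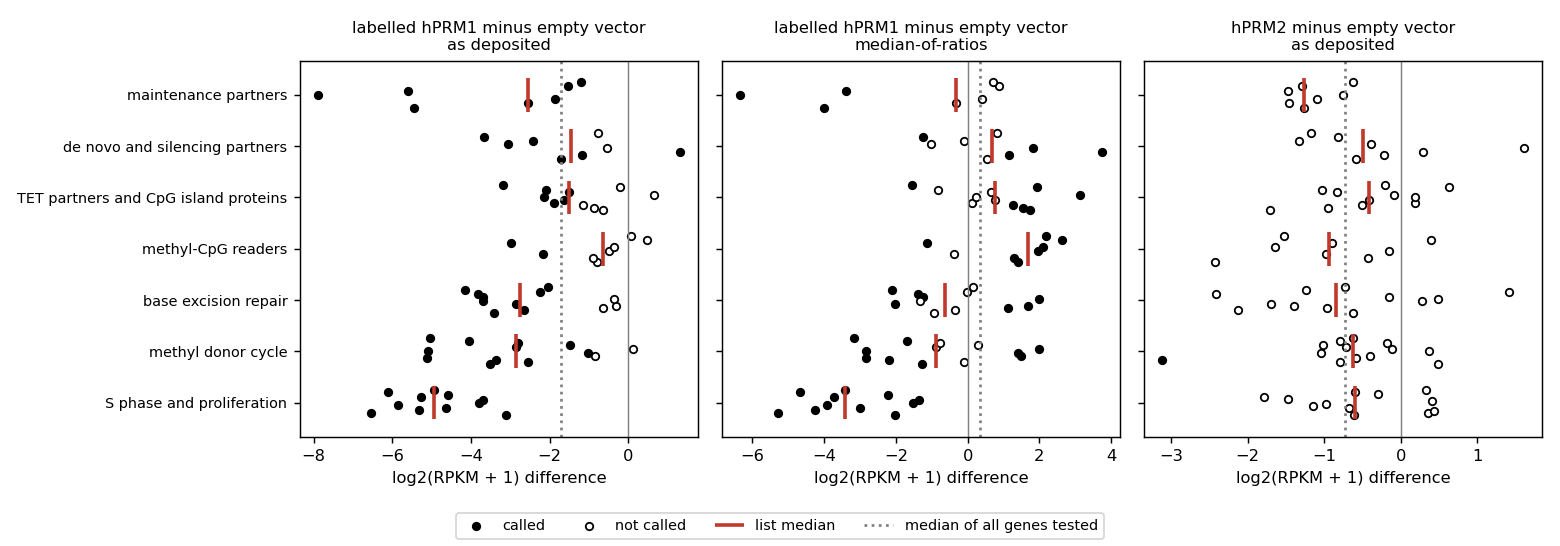
Log2(RPKM + 1) difference from the empty vector (horizontal axes) of the tested genes of 6 partner groups and of the S phase list, 1 point per gene, with filled points called in limma, a bar at the median of each list and a dotted line at the median of all genes. The S phase list lies left of the line in the first and second panels (medians -4.94 and -3.42), the median of the methyl-CpG readers lies right of it (-0.64 and 1.70), with 2 of the 8 genes left of it in each panel, and 1 point is filled in the hPRM2 panel.

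In hPRM2, 1 of the 59 tested partner genes was called lower and 0 higher against the empty vector, beside 1.37% and 1.36% of all genes, with a median of -0.73. At an unadjusted p under 0.05, 10 were lower and 2 higher, beside 25.5% of all genes in either direction. The 1 call, named after its values were seen, was AHCYL2, a relative of the enzyme that clears S-adenosylhomocysteine, with 13.9, 6.53 and 13.6 RPKM in the empty vector and 0.158, 0 and 1.17 RPKM in hPRM2 (-3.11 ± 0.61, SE, adjusted p = 0.0498). It was lost after rescaling (-2.32, limma adjusted p = 0.0640), where 0 partner genes were called. In that scaling 2 partner genes were lower and 4 higher at an unadjusted p under 0.05, beside 17% of all genes. None of the 12 S phase genes was called in hPRM2 under either scaling, with medians of -0.60 and -0.07, and 4 and 0 of them were lower at an unadjusted p under 0.05. Directly against hPRM2, 26 of 56 tested partner genes were lower in the libraries labelled hPRM1 and 1, MBD1, a methyl-CpG reader named after its values were seen, was higher (1.63 ± 0.37, SE, adjusted p = 0.0102). Among all genes 37.0% were lower and 16.0% higher. After rescaling 11 partner genes were lower and 12 higher, beside 16.1% and 31.1% of all genes.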

How the data were processed

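RNA of 9 libraries labelled HEK293T, 3 per group, was analysed. Per the study's methods and the labels, the authors processed reads with FastQC, Cutadapt, STAR and Salmon on hg38 (versions not given in the sources used here), removed mitochondrial genes and deposited RPKM values for 57338 genes, made from counts divided by total counts and gene length, without pooling replicates. No counts were used, and 0 columns were left unused. Of the Ensembl identifiers 98.6% had a symbol, and all 10 genes and 63 partner genes matched.

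Tests covered genes that reached an RPKM of 1 in 3 or more of the 6 libraries compared, in R 4.3.3 with limma 3.58.1 (lmFit, eBayes with trend and robust) on log2(RPKM + 1), a pseudocount of 1, with Benjamini-Hochberg adjustment and each of the 3 comparisons in its own fit. Calls needed an adjusted p of at most 0.05 and 2-fold. The fits were tested on simulated data. Reads were estimated from 1-read steps of genes with a single GENCODE 29 transcript, with 250 bases subtracted from the length, so they cover reads on genes only. Since most genes gave no whole reads, a count test was not run. Limits from a count of 0 cover counting error only. Promoters came from RefSeq (GRCh38.p14).

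Named genes are the 10 members, the 3 partner genes of each group highest in the empty vector, DNMT3L, PCNA, USP7, CDCA7, ZBTB24, OGT, MBD4, PRM1, PRM2 and the highest gene of each marker list, and 2 genes that this rule takes are not reported here. Further marker and S phase genes are named where they bear on the reading of their list. Members and lists were chosen with earlier results of these data known. The alternatives were a replicate block, leaving out each replicate, pseudocounts of 5 and 0.1, a minimum of 10 RPKM or none, quantile normalization, median-of-ratios rescaling, 1 fit over all 9 libraries, the study's per-gene test and calls without a fold threshold. Rescaling over the 6 libraries compared was added after seeing the data. Python 3.11.15 (numpy 2.4.6, pandas 2.3.3, SciPy 1.17.1) gave all other values, and matplotlib 3.10.9 the figures. DNA methylation itself was not analysed here.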

Additional observations from a re-analysis of the deposited data

How the results depend on the processing

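HELLS, TET1, UHRF1 and DNMT3B kept their lower direction in the libraries labelled hPRM1 against the empty vector under every alternative in which they were tested. TET1 kept its call in 17 of 17, HELLS in 16 of 17 and UHRF1 in 15 of 16, lost in the study's per-gene test, and DNMT3B in 15 of 16, lost with a pseudocount of 5. In that comparison 7 of the 10 genes were called lower, 4 with a minimum of 10 RPKM, 4 in the per-gene test, and 4 after either median-of-ratios rescaling, when 2 were higher, as with quantile normalization. Of the partner genes 40 were lower and 1 higher, 16 and 20 after rescaling over 9 libraries, 20 and 16 over 6 libraries, 23 and 12 with quantile normalization, and 21 lower in the per-gene test. UHRF2 turned to 0.66, 0.38 and 0.13 under these 3 scalings, TDG to 0.71 and 0.39 under the first 2, TET3 to 0.71 and 0.45 with rescaling over 9 libraries and quantile normalization, and DNMT3A to -0.18 without empty vector replicate 1 and -0.01 without hPRM1 replicate 2, in a range of -0.18 to 0.50 over the replicates left out.

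In hPRM2 against the empty vector, 2 of the 10 genes and 4 partner genes were lower and 1 partner gene higher in the fit of all 9 libraries. The 1 partner call fell to 0 with pseudocounts of 0.1 and 5, no filter, a minimum of 10 RPKM, each scaling, the replicate block and the per-gene test. Leaving out replicates gave 0 to 1 of the 10 genes lower, 0 to 8 partner genes lower and 0 to 1 higher, with the highest counts without hPRM2 replicate 1. DNMT3A and UHRF1 turned to 0.15 and 0.022 with quantile normalization, and TET3 turned to 0.060 and 0.021 without hPRM2 replicates 2 and 3, in a range of -0.58 to 0.060. Over all genes, 180 were lower and 179 higher, 1618 and 507 in the fit of all 9 libraries, 1619 and 810 without hPRM2 replicate 1, 2 to 44 lower and 10 to 40 higher without any other library, 10 and 0 in the per-gene test, 17 and 72 without a filter, 44 and 123 with a minimum of 10 RPKM, 101 and 152 with a pseudocount of 5, 78 and 254 after rescaling, 83 and 222 with it over 6 libraries, and 141 and 312 with quantile normalization.

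In the direct comparison of the libraries labelled hPRM1 with hPRM2, 4 of the 10 genes were lower and 1 higher, 2 and 0 with a pseudocount of 5 and with a minimum of 10 RPKM, and 0 and 0 in the per-gene test. None was higher without a filter, and 2 were higher under each scaling. Partner genes were 26 lower and 1 higher, 16 and 0 with the minimum of 10 RPKM, 11 and 12 after either rescaling, 13 and 7 with quantile normalization, 0 and 0 in the per-gene test, 0 higher with a pseudocount of 5 and 2 higher in the fit of all 9 libraries. Leaving out replicates gave 4 to 5 of the 10 genes lower, the fifth being TDG without hPRM2 replicate 1, 0 to 2 higher, 19 to 30 partner genes lower and 1 to 3 higher. UHRF2 and TDG turned to -0.11 and -0.11 with a pseudocount of 5, to -0.41 and -0.65 in the per-gene test and to -0.85 and -1.20 without hPRM2 replicate 1, UHRF2 to -0.02 without hPRM1 replicate 1 and TDG to -0.10 without hPRM1 replicate 3, in ranges of -0.85 to 0.73 and -1.20 to 0.82 over the replicates left out. Over all genes, the libraries labelled hPRM1 had 8491 lower and 1750 higher than the empty vector, 3239 and 4863 after rescaling, 3731 and 4227 over 6 libraries, 4646 and 3819 with quantile normalization, 3788 and 805 in the per-gene test, 4970 and 867 with a minimum of 10 RPKM, and 6341 and 1152 with a pseudocount of 5. Against hPRM2 they had 4355 lower and 1879 higher, 2107 and 4074 after rescaling, 2061 and 3977 over 6 libraries, 2683 and 3426 with quantile normalization, 103 and 116 in the per-gene test, 2828 and 922 with a minimum of 10 RPKM and 3622 and 1304 with a pseudocount of 5. Minimum filters tested fewer genes; the cause of the other shifts was not tested.

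Replicate numbers are shared between the groups, but nothing says that they pair libraries: same-numbered libraries correlated between -0.08 and 0.08 in their deviations from the group means. With the replicate block, 7 of the 10 genes remained lower in the libraries labelled hPRM1, 0 were called in hPRM2, and in the direct comparison 4 were lower and 0 higher, since TET2 was not called (adjusted p = 0.0825), and 0 partner genes were higher. Over all genes the block left 8 lower and 49 higher in hPRM2. Few reads limit UHRF1, DNMT3B and TET1 in the libraries labelled hPRM1 and DNMT3A, DNMT3B, UHRF2, TET2 and TET3 in hPRM2.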
